A study of Homo sapiens with 12 samples.

Results

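The FOXA1 binding sites examined here are those inside the HOX gene clusters, HOXA, HOXB (without its 13 member), HOXC and HOXD, in LNCaP, a human prostate cancer cell line that responds to androgen. A peak was included when its centre lay in 1 of 4 hg19 windows, chr7:27100000-27270000 for HOXA, chr17:46590000-46730000 for HOXB, chr12:54310000-54470000 for HOXC and chr2:176930000-177070000 for HOXD. Peaks of the 12 libraries that shared at least 1 base were merged into 1 region. This gave 56 HOX regions, of 178794 regions over all chromosomes. None of the 4 clusters was empty.

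The study mapped FOXA1 by chromatin immunoprecipitation and sequencing (ChIP-seq), and its title concerns the control of FOXA1 protein stability by Polycomb and a BUB3/USP7 deubiquitinating complex. In 8 libraries FOXA1 itself was precipitated from cells kept for 7 days in DMSO (the solvent), in 1 µM EPZ-6438, in 3 µM P5091 or in both (called the combination here), with 2 replicates per group. EPZ-6438 (tazemetostat) inhibits EZH2, the methyltransferase of Polycomb repressive complex 2, and P5091 inhibits the deubiquitinase USP7. In 4 further libraries, 1 per condition and 5 days after infection, the HA tag was the target of the antibody. The conditions were pGIPZ control cells, cells with a hairpin RNA that depletes FOXA1 (shFoxA1), and shFoxA1 cells given HA-tagged wild-type (WT) FOXA1 or HA-tagged FOXA1 with the K295A substitution. All 12 libraries share the LNCaP background. The tagged proteins are introduced forms in cells that also carry the hairpin, and the level of FOXA1 protein was not analysed here.

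HOX genes code for homeodomain transcription factors that give cells their position along the body axis, and they stand in clusters in the order in which they are used. They are classical targets of Polycomb repressive complex 2, which places methyl groups on lysine 27 of histone H3 and keeps silent genes silent. FOXA1 is a forkhead pioneer factor of luminal prostate cells that opens chromatin for the androgen receptor. Several HOX genes are active in the adult prostate, where the HOX code helps to set regional identity. The windows hold 37 HOX genes, 10 in HOXA and 9 in each of HOXB, HOXC and HOXD. No hg19 gene annotation was used here, so regions are named by cluster and by their order along the chromosome (HOXC site 1 to HOXC site 19, for example) and are not assigned to single genes.

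Forkhead factors such as FOXA1 read short sequences with the core TGTTTAC or TGTTTGC. Promoters from the RefSeq set of GRCh38.p14 (250 bases before to 50 after the start) were found for 20 of the 37 HOX genes, 27 promoters in all. Searched on both strands, TGTTTAC was present in 3.42% of all 35116 promoters and TGTTTGC in 3.89%. Among the HOX genes in the set, both matched the promoter that HOXC4 and HOXC5 share, and no other. A related core, TATTTAC, was in 2.67% of all promoters and in those of HOXA2 and HOXD1. The shared promoter is shown because it is the HOX promoter of the set with both forkhead cores. It comprises the 250 bases before the start on the plus strand, at chr12:54016638-54016887 in GRCh38.p14. Capitals mark TGTTTAC on the minus strand, 195 bases before the start, and TGTTTGC on the plus strand, 134 bases before it. The matches do not overlap.
HOXC4 and HOXC5 promoter: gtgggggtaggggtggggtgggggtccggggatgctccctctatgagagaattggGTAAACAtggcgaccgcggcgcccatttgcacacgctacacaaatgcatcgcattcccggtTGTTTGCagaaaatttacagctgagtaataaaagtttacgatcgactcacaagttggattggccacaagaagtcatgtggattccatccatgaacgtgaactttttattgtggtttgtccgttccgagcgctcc
These letters are a description of the promoter. The FOXA1 regions have hg19 coordinates and were not placed against it.

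FOXA1 libraries held 12299238 to 22589685 tags and HA libraries 11640056 to 13694090. Combination replicate 1 stood apart. It had 30811 peaks, where the other 7 FOXA1 libraries had 68504 to 84423, with 5.26% of its tags in peaks against 18.86% to 21.2%. At regions called in all 8 FOXA1 libraries its median normalized tag count was 15, against 35 to 40.2 in the others. A normalized tag count is the number of tags in a peak, scaled to a library of 1e7 tags. Because of that library, tests were made on log2 values centred on each library's median. Some of the values without it are given.

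HOXC held the most FOXA1 regions of the 4 clusters and HOXD had none that was called in every library. Of the 56 regions, 46 had a peak in at least 1 FOXA1 library and 10 were called with the HA antibody alone. HOXC had 18 FOXA1 regions in 160 kb, HOXA 12 in 170 kb, and HOXB and HOXD 8 each in 140 kb. That is 11.25 per 100 kb for HOXC, 7.06 for HOXA, and 5.71 for HOXB and for HOXD. The 4 clusters together had 7.54 per 100 kb. All chromosomes had 7.04, taking the genome size of 2e9 bases in the file headers. The HOX densities use the full length of the windows and the density of all chromosomes uses that header setting, so the lengths are not alike. Whether the HOX clusters differ from the genome in density was not tested.

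A peak was present in all 8 FOXA1 libraries at 9 of the 46 regions (19.6%), against 17.2% of the FOXA1 regions over all chromosomes. Of these, 5 lay in HOXC, 2 in HOXB, 2 in HOXA and 0 in HOXD. Another 24 regions were called in 2 to 7 libraries, with tag counts of 6.66 to 58.7. The remaining 13, or 28.3%, were called in a single FOXA1 library, with values of 6.66 to 12.6. The share called in a single library over all chromosomes was 26.4%. The threshold at the false discovery rate used equalled normalized tag counts of 6.20 to 8.13 in the FOXA1 libraries. The lowest deposited values lay below it, from 4.64 in DMSO replicate 2 to 6.58 in DMSO replicate 1. The longest stretch between neighbouring region centres was 32.1 kb in HOXD, 25.0 kb in HOXB, 23.5 kb in HOXC and 21.5 kb in HOXA.

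The number of peaks in the 4 windows was similar in the libraries with and without EPZ-6438, apart from combination replicate 1. DMSO libraries had 27 and 24 peaks, P5091 libraries 22 and 25, EPZ-6438 libraries 28 and 25, and combination libraries 12 and 25. Per 10000 peaks of the library this is 2.94 to 3.81 without EPZ-6438 and 2.96 to 3.89 with it, and combination replicate 1, at 3.89, was the highest. The ranges overlap almost whole.

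**Figure D1:**
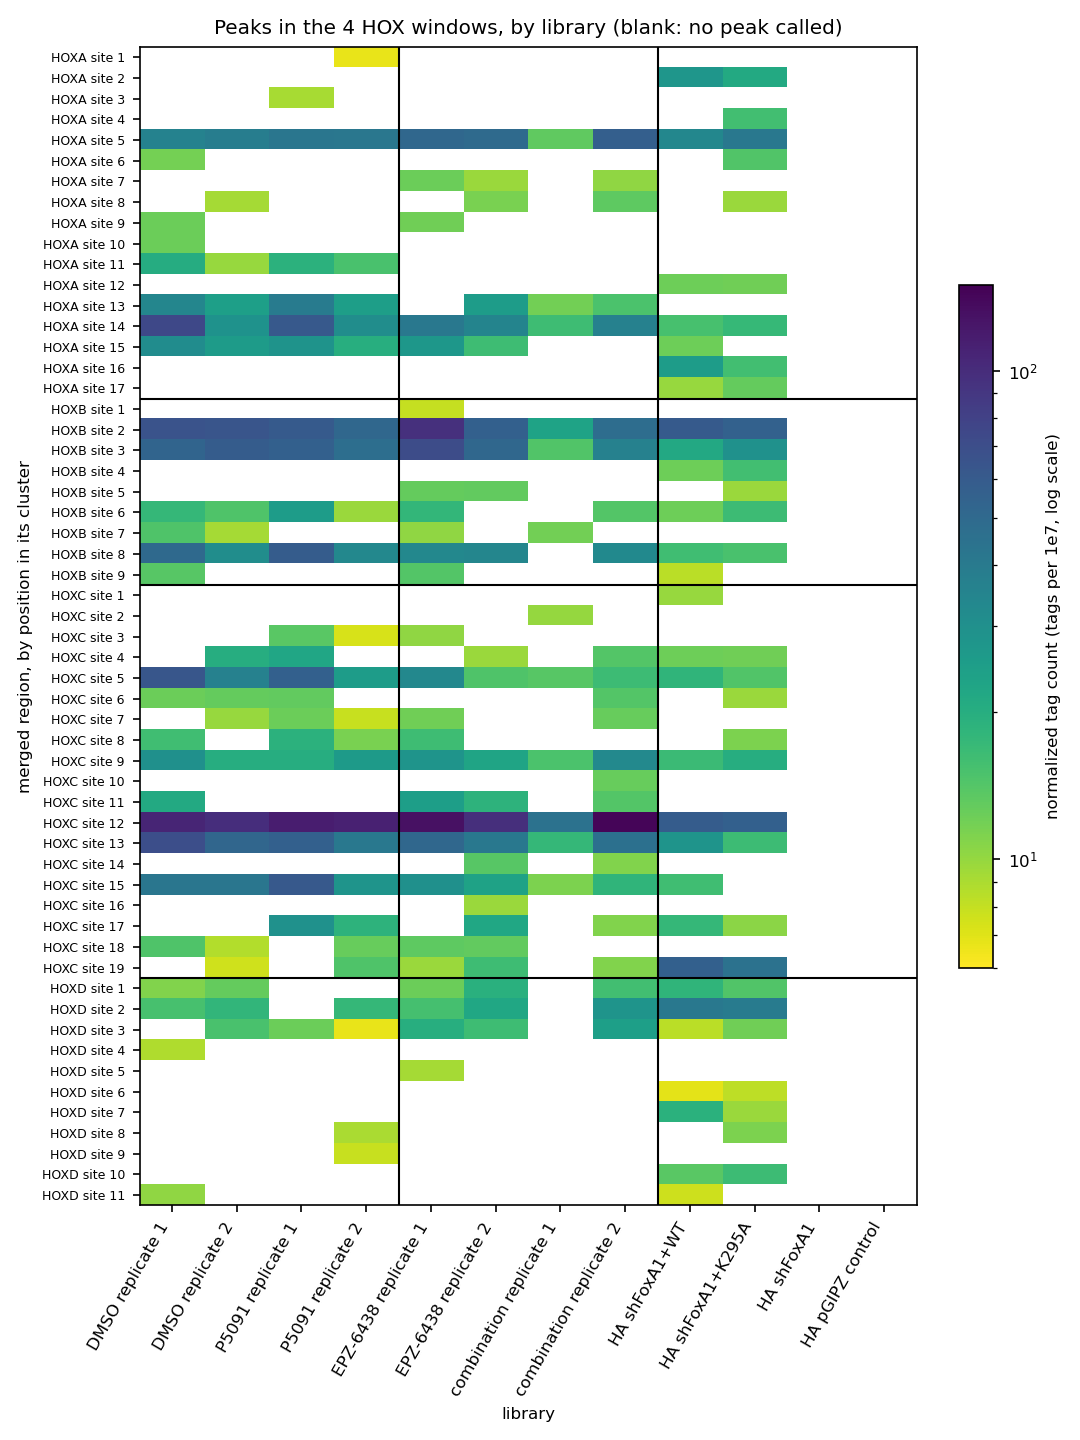
Normalized tag count (tags per 1e7, colour on a log scale) of each of the 56 merged regions (rows, in order of position within HOXA, HOXB, HOXC and HOXD) in each library (columns; FOXA1 libraries without EPZ-6438, then with it, then HA); blank cells have no called peak. The 9 regions called in all 8 FOXA1 libraries form unbroken rows across the first 8 columns, HOXD has none of them, and the shFoxA1 and pGIPZ columns of the HA experiment are blank.

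HOXC contained the strongest HOX region. HOXC site 12, at chr12:54410307-54410705, had tag counts of 107.5 and 98.7 with DMSO, 115.5 and 111.4 with P5091, 129.7 and 97.6 with EPZ-6438, and 44.4 and 144.4 with the combination. Its geometric mean of 101.3 stood at the 96.3rd percentile of the 24261 regions called in all 8 libraries, whose median was 32.4. Libraries with EPZ-6438 lay on either side of those without, with 129.7 and 144.4 above all 4 of them and 97.6 and 44.4 below.

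HOXC site 13, at chr12:54415402-54415776, had 69.5 and 51.7 with DMSO, 56.1 and 41.2 with P5091, 50.9 and 41.5 with EPZ-6438, and 17.5 and 45.8 with the combination. Its geometric mean was 44.0. The sides overlapped between 41.2 and 50.9.

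HOXC site 5, at chr12:54372691-54373150, had 63.6 and 36.6 with DMSO, 56.1 and 25.4 with P5091, 33.2 and 14.6 with EPZ-6438, and 13.8 and 16.6 with the combination. In 3 of 4 libraries with EPZ-6438 the value was below that of every library without it, and EPZ-6438 replicate 1 lay inside the range of the others. In each replicate the library with EPZ-6438 was below its partner without it. HOXC site 15, at chr12:54427186-54427593, had 42.4 in both DMSO libraries, 60.7 and 28.4 with P5091, 29.7 and 23.6 with EPZ-6438, and 11.3 and 18.2 with the combination. Here too 3 of 4 libraries with EPZ-6438 lay below all 4 without it, and the lowest library without it was P5091 replicate 2. These are values before centring, and the weak combination replicate 1 is 1 of the 3 at both sites. The share of all regions with such a split, or lower in each matched pair, was not counted. After centring, EPZ-6438 replicate 1 and combination replicate 1 lay above P5091 replicate 2 at both. The centred values were -0.074 and -0.112 against -0.544 at site 5. At site 15 they were -0.230 and -0.379 against -0.389.

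HOXC site 9, at chr12:54393534-54394045, was the weakest of the 5 by geometric mean, at 23.8. It had 30 and 20.3 with DMSO, 20.2 and 26 with P5091, 28.3 and 22.8 with EPZ-6438, and 15 and 33.1 with the combination. The sides overlapped over most of their range. Of the HOXC regions called in fewer than 8 libraries, site 17 (chr12:54446391-54446796) reached the highest value. It was called in 4 libraries, at 29.4 and 18.8 in the P5091 libraries, 22 in EPZ-6438 replicate 2 and 11 in combination replicate 2.

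HOXB had its strongest region near the lower end of its window. HOXB site 2, at chr17:46599548-46599940, had 65.8 and 63.9 with DMSO, 60 and 51.4 with P5091, 96.1 and 56.1 with EPZ-6438, and 23.1 and 47.3 with the combination. Its geometric mean of 54.4 was at the 80.5th percentile. EPZ-6438 replicate 1 was the highest library and both combination libraries were the lowest.

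HOXB site 3, at chr17:46624478-46624994, had 53.4 and 58.6 with DMSO, 56.1 and 46.6 with P5091, 70.8 and 51.2 with EPZ-6438, and 14.4 and 36.3 with the combination. As at site 2, EPZ-6438 replicate 1 was the highest and both combination libraries were the lowest. HOXB site 8, at chr17:46696727-46697119, was called in all FOXA1 libraries but combination replicate 1 and held the highest value among the HOXB regions missing from a library. It had 49.7 and 30.8 with DMSO, 58.7 and 33.3 with P5091, 33.2 and 34.1 with EPZ-6438, and 32.4 in combination replicate 2. The 3 values with EPZ-6438 lay within the range of those without.

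HOXA site 5, at chr7:27160493-27160896, had 35.8 and 38.3 with DMSO, 42.4 and 41.8 with P5091, 51.4 and 49.6 with EPZ-6438, and 13.1 and 56.8 with the combination. Outside combination replicate 1, every library with EPZ-6438 was above every one without. After centring, combination replicate 1 was still the lowest, at -0.182 against -0.163 in DMSO replicate 1. The share of all regions split in this way was not counted. HOXA site 14, at chr7:27214740-27215151, had 74.6 and 29 with DMSO, 61.3 and 30.9 with P5091, 41.6 and 35 with EPZ-6438, and 16.3 and 36.3 with the combination. Replicate 1 was above replicate 2 in 3 of 4 groups, the exception being the combination, and the sides overlapped. HOXA site 13, at chr7:27212348-27212740, had the highest value among HOXA regions missing from a library, with 34.4 and 24.4 with DMSO, 39.1 and 24.8 with P5091, 25.2 in EPZ-6438 replicate 2, and 11.9 and 15 with the combination. EPZ-6438 replicate 1 had no peak there.

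HOXD was the cluster with the weakest FOXA1 signal. Its highest value was 28.4, at HOXD site 2 (chr2:176941730-176942115) in combination replicate 2. That region had 15.4 and 18 with DMSO, 17.6 in P5091 replicate 2, and 15.5 and 22 with EPZ-6438, and no peak in P5091 replicate 1 or combination replicate 1. The other 7 HOXD regions with a FOXA1 peak comprised 2 called in 5 or 6 libraries and 5 called in 1, at values of 7.87 to 10.2. No HOXD region entered the main test of tag counts, because none was called in all 8 libraries.

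**Figure D2:**
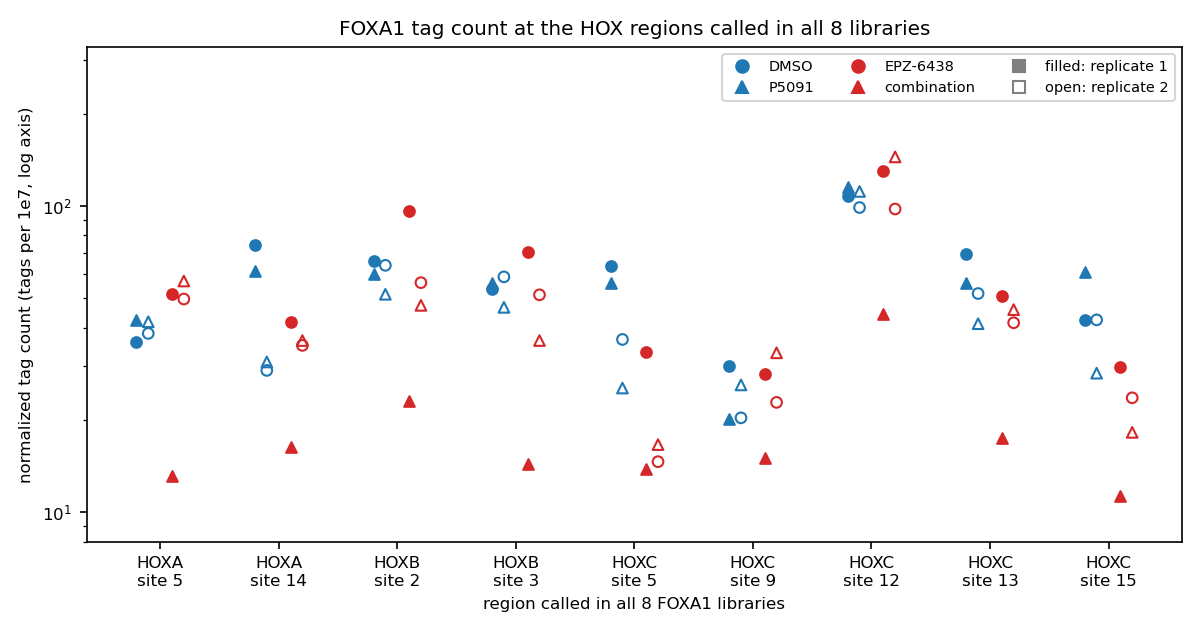
Normalized tag count (tags per 1e7, log axis) of the 9 HOX regions called in all 8 FOXA1 libraries; blue marks libraries without EPZ-6438 and red those with it, circles are DMSO or EPZ-6438, triangles P5091 or the combination, filled symbols replicate 1 and open symbols replicate 2. HOXC site 12 is the strongest, from 44.4 to 144.4, and combination replicate 1 (filled red triangle) is the lowest library at every region.

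The comparison of libraries with and without EPZ-6438 asks whether FOXA1 binding in these Polycomb target clusters differs when EZH2 is inhibited. None of the 9 regions passed the test: 0 of 9 were called higher, against 0.0948% of all 24261 regions, and 0 of 9 lower, against 0.0618% (limma on centred log2 (tag count + 1), Benjamini-Hochberg adjustment over all regions, 4 libraries against 4). At an unadjusted p under 0.05 there were 2 of 9, HOXC sites 5 and 15, and 3373 of all regions. The edgeR quasi-likelihood test also called 0 of 9, against 0.0948% of all regions higher and 0.0536% lower. At an unadjusted p under 0.05 it had 2 of 9 and 3280 of all regions. The centred values of the 2 sides were fully apart at 0 of 9 regions in either direction, where 4.46% of all regions had every library with EPZ-6438 above and 4.12% had every one below. The median log2 difference of the 9 was -0.14, and that of all regions -0.01.

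HOXC site 5 had the lowest log2 difference of the 9, -0.81 ± 0.32 (SE; adjusted p = 0.251 by limma), at the 0.767th percentile of all regions. HOXC site 15 followed with -0.70 ± 0.27 (adjusted p = 0.243 by limma), at the 1.64th percentile. At both the centred value was lower with EPZ-6438 in 4 of 4 pairs of libraries matched for replicate and for P5091. The 2 regions were singled out by their low differences, and the share of all regions lower in 4 of 4 pairs was not counted. Tags are counted over the peak width, 279 bases in combination replicate 1 and 356 to 365 in the other replicate 1 libraries. A replicate block does not remove that difference. Since the replicate numbers were taken to pair the libraries, a fit with the replicate as a block was also made. In it both regions were lower with EPZ-6438, with the same differences: HOXC site 5 at ± 0.22 and adjusted p = 0.0127 by limma, and HOXC site 15 at ± 0.22 and adjusted p = 0.0364 by limma. That fit called 3.5% of all regions higher and 4.06% lower, and 0 and 2 of the 9 HOX regions. In edgeR with the block the same 2 HOX regions were called lower, where 3.92% of all regions were higher and 3.98% lower. When the blocked limma fit took in regions called in at least 6 of the 8 libraries, with missing values left out, 14 HOX regions were tested and the same 2 were lower, where 2.48% of all regions were higher and 2.38% lower. HOXD sites 2 and 3 then had a value, 0.45 (adjusted p = 0.578) and 0.81 ± 0.37 (SE; adjusted p = 0.214), and did not pass. Neither has a peak in combination replicate 1, so both values leave out that weak library. HOXD site 3 had only 6.66 in P5091 replicate 2. Among the other regions added, HOXB site 6 had 0.09 and HOXB site 8 had -0.27 in the fit without the block. Without the block, the sole call with 1 library left out was HOXC site 5 without P5091 replicate 2 (-1.08, adjusted p = 0.0398 by limma), in a fit that called 1.42% of all regions higher and 1.14% lower.

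The blocked calls depended on single libraries. With each of the 8 libraries left out in turn, the call of HOXC site 5 held in 5 of 8 blocked fits and was lost without P5091 replicate 1, DMSO replicate 2 or EPZ-6438 replicate 2 (adjusted p of 0.102 to 0.13 by limma). The call of HOXC site 15 held in 2 of 8, without DMSO replicate 1 and without P5091 replicate 2. In the other 6 its adjusted p was 0.0579 to 0.373 by limma. These 8 fits called 0.561% to 6.08% of all regions lower. The log2 differences of both HOX regions stayed negative in all of them, from -0.93 to -0.69 at site 5 and from -0.91 to -0.48 at site 15. Without combination replicate 1 the values were -0.81 (adjusted p = 0.035 by limma) at site 5 and -0.74 (adjusted p = 0.0586) at site 15, with 1 of 10 HOX regions lower where 1.54% of all regions were higher and 2.43% lower.

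Of the other 7 regions, 4 had positive and 3 negative differences, and none passed the test in either fit. HOXC site 9 had 0.37 ± 0.25 (SE; adjusted p = 0.538 by limma), and its centred value was higher with EPZ-6438 in 4 of 4 pairs. How many of all regions were higher in 4 of 4 pairs was not counted. HOXA site 5 had 0.29 ± 0.23, HOXC site 12 had 0.18 ± 0.18 and HOXB site 2 had 0.09 ± 0.22. HOXB site 3 had -0.14 ± 0.22, HOXA site 14 had -0.18 ± 0.27 and HOXC site 13 had -0.19 ± 0.22. Within HOXC, then, regions called in every library had differences of either sign.

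**Figure D3:**
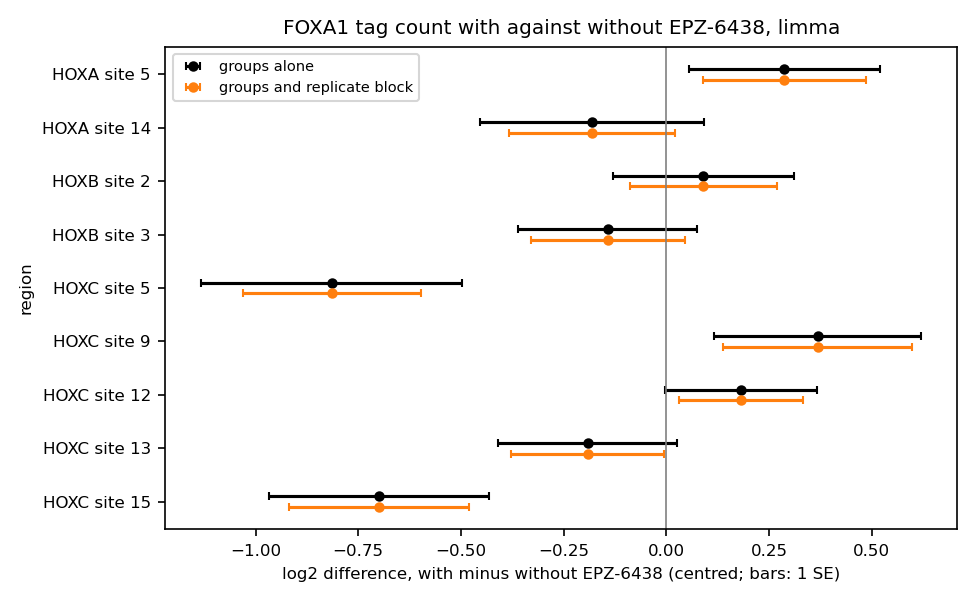
Log2 difference in centred FOXA1 tag count between the 4 libraries with and the 4 without EPZ-6438 (horizontal axis) at the 9 HOX regions called in all 8 libraries; points are limma estimates and bars 1 SE, black for the fit on groups alone and orange for the fit with the replicate block. HOXC sites 5 and 15, at -0.81 and -0.70, lie farthest from 0, and the block narrows their SE to 0.22.

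The 2 comparisons that make up this contrast gave no call among the 9 regions. For EPZ-6438 against DMSO, 0 of 9 were called (0% of all regions in either direction), with 1 of 9 and 1596 of all regions at an unadjusted p under 0.05. That region was HOXC site 5, at -1.04 ± 0.45 (SE; adjusted p = 0.713 by limma). For the combination against P5091, 0 of 9 were called (0% of all regions), with 1 of 9 and 1815 of all regions at an unadjusted p under 0.05. That region was HOXC site 15, at -0.80 ± 0.38 (adjusted p = 0.661 by limma). The edgeR test called 0 regions of the genome in each. The blocked fit called 0 of 9 in either, where 0.322% of all regions were higher and 0.367% lower in the first comparison, and 0.326% higher and 0.519% lower in the second. Without combination replicate 1 it called HOXC site 5 lower in the first comparison (-1.04, adjusted p = 0.044 by limma), where 0.649% of all regions were higher and 0.99% lower. It also did so without combination replicate 2 (-1.02, adjusted p = 0.0422 by limma), where 0.902% of all regions were higher and 1.08% lower. The test of the difference between the 2 comparisons called 0 of 9 HOX regions and 0 of all regions, with 0 of 9 and 249 of all at an unadjusted p under 0.05.

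Regions that lack a peak in some libraries have no value there, so they were described by how often they were called. A region counted as called more often on 1 side when at least 3 of that side's 4 libraries and at most 1 of the other 4 called it. More often with EPZ-6438 were 2 of the 46 HOX regions, where 2.8% of all FOXA1 regions met the rule. More often without it were 3 of the 46, where 5.14% of all regions did. Both counts are close to those shares.

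HOXA site 7, at chr7:27176036-27176398, was called at 12.4 and 9.76 with EPZ-6438 and at 10.3 in combination replicate 2, and in 0 libraries without EPZ-6438. HOXC site 11, at chr12:54404381-54404745, was called at 24.8 and 18.7 with EPZ-6438, at 14.2 in combination replicate 2 and at 21.2 in DMSO replicate 1. At HOXC site 11 the DMSO value lay inside the range of the 3 libraries with EPZ-6438.

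HOXA site 11, at chr7:27199584-27199980, was called in all 4 libraries without EPZ-6438 and in 0 of 4 with it. Its values were 20.5 and 9.87 with DMSO and 18.9 and 15.1 with P5091. It was the sole HOX region split that way, which 0.494% of all FOXA1 regions were; 0 HOX regions were split the opposite way, against 0.066% of all. HOXC site 6, at chr12:54381493-54382267, was called at 12.4 and 12.8 with DMSO, 13 in P5091 replicate 1 and 14.2 in combination replicate 2. HOXC site 8, at chr12:54392781-54393263, was called at 16.1 in DMSO replicate 1, 18.9 and 11.5 with P5091, and 16.4 in EPZ-6438 replicate 1. The single library with EPZ-6438 was the highest of those called at site 6 and lay inside the range of the others at site 8.

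Missing calls in combination replicate 1 bear on these counts, because that library called no peak at any of the 5 regions. Without it, and with the rule asking for all but 1 of the libraries left, 5 of 45 HOX regions were called more often with EPZ-6438 in place of 2 of 46, and the share of all FOXA1 regions was 9.45% in place of 2.8%. With any 1 library left out, 2 to 5 HOX regions were called more often with EPZ-6438, where 3.92% to 9.45% of all regions were. The counts called more often without it were 3 to 7, where 5.43% to 9.85% of all regions were. The 7 came without EPZ-6438 replicate 1, as 7 of 44 HOX regions against 9.1% of all.

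The HA libraries show where introduced FOXA1 was found in the same windows. WT FOXA1 had 29 HOX regions and the K295A protein 31, with 24 called for both, 5 for WT alone and 7 for K295A alone. Of the 36 regions called with either protein, that is 66.7% with both, 13.9% with WT alone and 19.4% with K295A alone, where the 110570 such regions over all chromosomes had 61.6%, 26.2% and 12.2%. The untagged pGIPZ and shFoxA1 libraries had 0 peaks in the windows, of 982 and 971 in all. These controls held 13694090 and 11640056 tags, where the WT and K295A libraries held 13102175 and 13275226 and had 29 and 31 peaks there. At similar depth, then, few or no peaks in the windows were called without a tag. As a share of so few peaks, a count of 0 allows up to 30.5 and 30.9 per 10000. That is above the 2.99 of WT and the 3.80 of K295A, so the shares per peak cannot be compared. With 1 library per condition no test was possible.

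At the 24 regions called with both proteins the ratio of K295A to WT had a median of 0.971, against 0.941 over all 68151 such regions. No HOX region reached a 2-fold difference in either direction, 0 of 24, where 0.927% of all regions were at least 2-fold higher with K295A and 2.29% at least 2-fold lower. The lowest ratio was at HOXD site 7 (chr2:177030730-177031089), with 19.1 for WT and 9.79 for K295A, a ratio of 0.513 (95% exact interval 0.241 to 1.04, counting error only). The highest was at HOXD site 3 (chr2:176962252-176962646), with 8.4 and 12.1, a ratio of 1.44 (interval 0.626 to 3.42). The interval included 1 at each of the 24 regions. Both of these intervals reach past 2-fold, so at regions with so few tags a difference of that size was not detectable. The strongest region called with WT alone was HOXC site 15, at 16, and the strongest with K295A alone was HOXA site 4 (chr7:27139056-27139354), at 15.8.

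**Figure D4:**
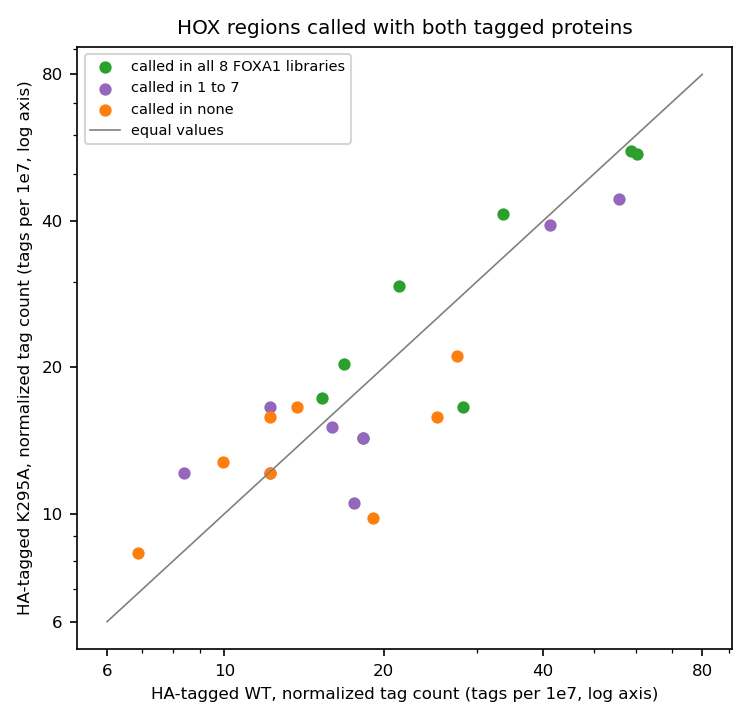
Normalized tag count of HA-tagged WT (horizontal) and HA-tagged K295A FOXA1 (vertical), both in tags per 1e7 on log axes, at the 24 HOX regions called with both; colours give the number of FOXA1 libraries that call the region, and the line marks equal values. The points lie along the line, with ratios from 0.513 to 1.44, and points of equal values cover each other.

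Some HOX regions that were weak in the FOXA1 libraries were among the strongest with tagged FOXA1. HOXC site 19, at chr12:54461936-54462395, had 55.7 with WT and 44.4 with K295A, and in the FOXA1 libraries no more than 16.3. It was called there at 7.55 in DMSO replicate 2, 14.5 in P5091 replicate 2, 9.74 and 16.3 with EPZ-6438 and 11 in combination replicate 2. HOXC site 19 was picked out after its values were seen. HOXD site 2 had 41.2 with WT and 39.2 with K295A, and the WT value was 2.48 times the geometric mean of the DMSO libraries. That ratio was at the 97.4th percentile of the 42559 regions called in the WT library and in both DMSO libraries, whose median was 0.76. HOXD site 1 (chr2:176937869-176938313) had a ratio of 1.54, with 18.3 for WT and 11 and 12.8 with DMSO. At the other end, HOXA site 14 had 15.3 with WT and a ratio of 0.329, at the 3.86th percentile. HOXC sites 5 and 15 had 0.379 and 0.377. The antibodies, the infection and the days of culture differ between the 2 experiments, so these ratios are values side by side and not a test.

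Of the 24 regions called with both tagged proteins, 8 (33.3%) were called in none of the FOXA1 libraries, against 24.3% of such regions over all chromosomes. FOXA1 peaks also had to be 4-fold over input, and the HA lists were called without input. A region called with HA alone can therefore be one that the input filter took out of the FOXA1 lists. The 10 regions called with HA alone comprised 5 in HOXA, 3 in HOXD, 1 in HOXB and 1 in HOXC. The strongest were HOXA site 2 (chr7:27130768-27131155), at 27.5 with WT and 21.1 with K295A, and HOXA site 16 (chr7:27226395-27226699), at 25.2 and 15.8. These HOXA regions were chosen for naming after their values were seen. Conversely, 8 of the 9 HOX regions with a peak in every FOXA1 library (88.9%) were called with both tagged proteins, against 87.2% over all chromosomes, and the exception was HOXC site 15.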

How the data were processed

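ChIP-seq peak lists of 12 LNCaP libraries were used. Per the submitters' processing notes, Bowtie2, HOMER 4.2 and hg19 were used. HOMER findPeaks called the peaks of each library by itself, per the file headers, in its factor mode. The false discovery rate was 0.001, and a peak had to be at least 4-fold over the local 10 kb and, for FOXA1, over an input that serves both replicates of a treatment. The HA lists were called without input. The deposited normalized tag count is a signal scaled to 1e7 tags. The deposited findPeaks score was used for a stricter threshold (20 for FOXA1, 17 for HA), and the deposited fold over the surroundings and over input is the peak caller's ratio. Total tag counts were deposited as whole-number counts for 3 libraries. For every library, tags were recovered from the normalized tag count and the library total. In those 3 the recovered counts equalled the deposited ones at 97.33% (DMSO replicate 1) to 100% of peaks. The recovered counts served edgeR and the exact intervals of the tagged proteins.

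Where a library has a peak in a region, its value is its highest tag count there. The main test was limma 3.58.1 (R 4.3.3, trend) on log2 (tag count + 1), centred on each library's median, over the 24261 regions called in all 8 FOXA1 libraries, with 4 groups and a threshold of 0.05 on the Benjamini-Hochberg adjusted p. The pseudocount of 1 understates differences of weak regions. The alternative was edgeR 4.0.16. The limma and merging steps were tested on simulated data. Replicate numbers come from the titles. The deviations of same-numbered libraries correlated at 0.148 to 0.488 between all 6 pairs of groups, lowest in the pairs with the combination (0.148 to 0.224). Fragment lengths separate the numbers, so the numbers were taken to pair the libraries. Peak width, over which tags are counted, was 365, 363 and 356 bases in replicate 1 of DMSO, EPZ-6438 and P5091. It was 279 bases in combination replicate 1 and 274 to 296 in the replicate 2 libraries. A replicate block does not remove that difference, and its part in the blocked calls was not tested. Nothing in the labels ties the replicates to separate cultures: p-values measure the spread between these libraries, which may be technical. Ratios of tagged proteins have 95% exact intervals for counting error only.

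The text gives in full each region called in all 8 FOXA1 libraries, each called more often with or without EPZ-6438, the strongest other region of each cluster, and the extreme regions of the HA comparison. The regions and rules were chosen with earlier results of these data known. Alternatives were other scalings, 5 as the pseudocount, the wider set of regions called in at least 6 libraries, edgeR, the replicate block, other merging rules (such as centres within 500 bases), leave-one-out fits and score thresholds. The block with each library left out, and the block over the wider set of regions, were chosen after seeing the data.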

Additional observations from a re-analysis of the deposited data

How the results depend on the processing

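The replicate block moved the count of HOX regions lower with EPZ-6438 from 0 to 2 of 9, in limma and in edgeR, and the genome count from 23 higher and 15 lower to 848 and 986. With all 8 libraries it changed no HOX count in the comparisons of EPZ-6438 with DMSO and of the combination with P5091; with combination replicate 1 or 2 left out it called HOXC site 5 lower in the first. The block gave 2 of 14 with regions called in at least 6 libraries, and 0 to 2 with 1 library left out. Without the block, leaving out 1 library gave 0 to 1, the 1 being HOXC site 5 without P5091 replicate 2 (-1.08, adjusted p = 0.0398 by limma), where 348 regions of the genome were higher and 280 lower. With no centring, the median difference of all regions moved from -0.01 to -0.38, and HOXC site 12 (-0.18), HOXB site 2 (-0.28) and HOXA site 5 (-0.08) turned negative. Leaving out 1 library moved HOXB site 2 between -0.12 (without EPZ-6438 replicate 1) and 0.32 (in the blocked fit -0.05 without DMSO replicate 1 and -0.10 without EPZ-6438 replicate 1), HOXB site 3 from negative to 0.01 without EPZ-6438 replicate 2 (blocked 0.02), and HOXA site 14 between -0.47 and 0.11, positive without DMSO replicate 1 (0.11) and without P5091 replicate 1 (0.05). Leaving combination replicate 1 out of the main fit gave -1.06 at HOXC site 5, -0.85 at HOXC site 15 and 0.49 at HOXA site 5. The cause of these moves was not tested. Counts of regions called more often with EPZ-6438 ranged from 2 to 5 with 1 library left out (4 when EPZ-6438 replicate 1 or DMSO replicate 2, and 5 when combination replicate 1, was dropped), and those called more often without it from 3 to 7 (7 when EPZ-6438 replicate 1, and 5 when EPZ-6438 replicate 2 or combination replicate 2, was dropped). Fewer peaks remain at a score of at least 20, which left 8 HOXA, 11 HOXC and 2 HOXD regions and 1 called more often with EPZ-6438. At a score of at least 17, 12 HA regions were called with both proteins and 3 with K295A alone. In the other 81 pairs of a result and a setting, the HOX counts stayed within 1.5 times and the median ratio of K295A to WT within its spread. A peak list gives no value where no peak is called, so a region missing from a library cannot be told from one just under its threshold.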
